A study of Mus musculus with 12 samples.

Results

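Tetraspanins are small membrane proteins that cross the membrane 4 times and gather partner proteins, among them integrins, immunoglobulin superfamily proteins and proteases, into patches of the cell surface and of endosomes. The 10 tetraspanin genes described here were taken by symbol as those that macrophages are known to use: Cd9, Cd37, Cd53, Cd63, Cd81, Cd82, Cd151, Tspan3, Tspan4 and Tspan33. Each symbol named 1 row of the deposited count table, so the set is 10 of 54532 genes, and all 10 had enough counts to be tested. The libraries are polyadenylated RNA of tumour-associated macrophages (TAMs) from 6 glioma-bearing mice, 4 male and 2 female, all labelled Ntv-a_Ink4a/Arf_KO, which names a receptor for avian retroviral vectors under the nestin promoter and the loss of a tumour suppressor locus. All 6 mice received rhodamine-labelled perfluoro-crown-ether nanoparticles (labelled Rhodamine_PFCE_NP) into a vein, and tumours were taken 24 hours later. From each tumour, CD45+ CD11b+ Ly6C- cells were sorted into a rhodamine-positive group, which had taken up particles (the positive sort below), and a rhodamine-negative group, which had not (the negative sort), with more than 2000 cells in each sort. This gave 6 libraries of each group in 1 labelled batch. Both groups carry the same genotype, tumour and injection, so neither comes from a mouse without particles.

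In macrophages, CD63 is best known from late endosomes, lysosomes and the vesicles of multivesicular bodies, CD9 and CD81 from the cell surface, where they restrain the fusion of macrophages into giant cells, and CD37 and CD53 mainly from leukocytes. TSPAN4 is abundant in migrasomes, vesicles that form on the fibres that moving cells leave behind. TSPAN33 belongs to the subgroup that carries the protease ADAM10 to the surface.

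The 12 libraries held 13073189 to 17379314 counts. Macrophage markers identified both sorts: the 10 genes of that list, among them Csf1r, Adgre1 and the C1q chains, summed to 11192 to 27439 CPM (read counts scaled to a library's size after edgeR's trimmed-mean correction) in the negative sort and 28547 to 34144 CPM in the positive sort. The sum was higher in the rhodamine-positive library of all 6 mice (exact two-sided sign-flip permutation test, p = 0.0312, the smallest that 6 pairs can give, adjusted p = 0.0483 over 17 marker lists), and 8 of the 10 genes passed the test as higher. The microglia list rose in the same way, from 4692 to 14961 CPM to 10278 to 16782 CPM, with 3 of its 10 genes higher. The border-associated macrophage list went from 377 to 716 CPM to 769 to 1240.3 CPM, higher in all 6 mice, with 6 of its 8 tested genes higher and the largest mean log2 difference of the 3 lists, at 0.88 against 0.60 and 0.44. The monocyte list went the other way, from 246.6 to 614 CPM to 52.7 to 119 CPM, as did the dendritic cell list, from 886 to 1842 CPM to 407 to 675 CPM, which shares Siglech with the microglia list. The part of these shifts in the tetraspanin values was not tested, and in sorted pools fewer cells of a type and less RNA per cell cannot be told apart.

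The rhodamine-negative library of mouse 5 stood apart from the others. It had the lowest sum of macrophage markers, at 11192 CPM against 21824 CPM in the next lowest, the highest sums of dendritic cell, monocyte and basophil or mast cell markers, at 1842, 614 and 609 CPM, and the lowest score on the first principal component. Its 10 tetraspanins summed to 2950 CPM, where the other rhodamine-negative libraries had 5320 to 7865 CPM. Fold changes below are therefore given with and without mouse 5 where that mouse moves them.

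Of the 10 tetraspanins, 3 were higher in nanoparticle-carrying TAMs (Cd63, Tspan4 and Cd37), 1 was lower (Tspan33) and 6 did not pass. The share that passed was 40% of the 10, against 26.2% of the 15014 genes tested, of which 13% were higher and 13.2% lower. The median log2 fold change, rhodamine-positive minus rhodamine-negative, was 0.25 for the tetraspanins and -0.02 for all genes tested. The groups did not overlap for 3 of the 10 (Cd63, Tspan4 and Tspan33), against 8.81% of all genes, and 5 of the 10 moved the same way in all 6 mice, against 28.2% of all genes. With so few members, these counts describe the set and do not set it apart from other genes.

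**Figure D1:**
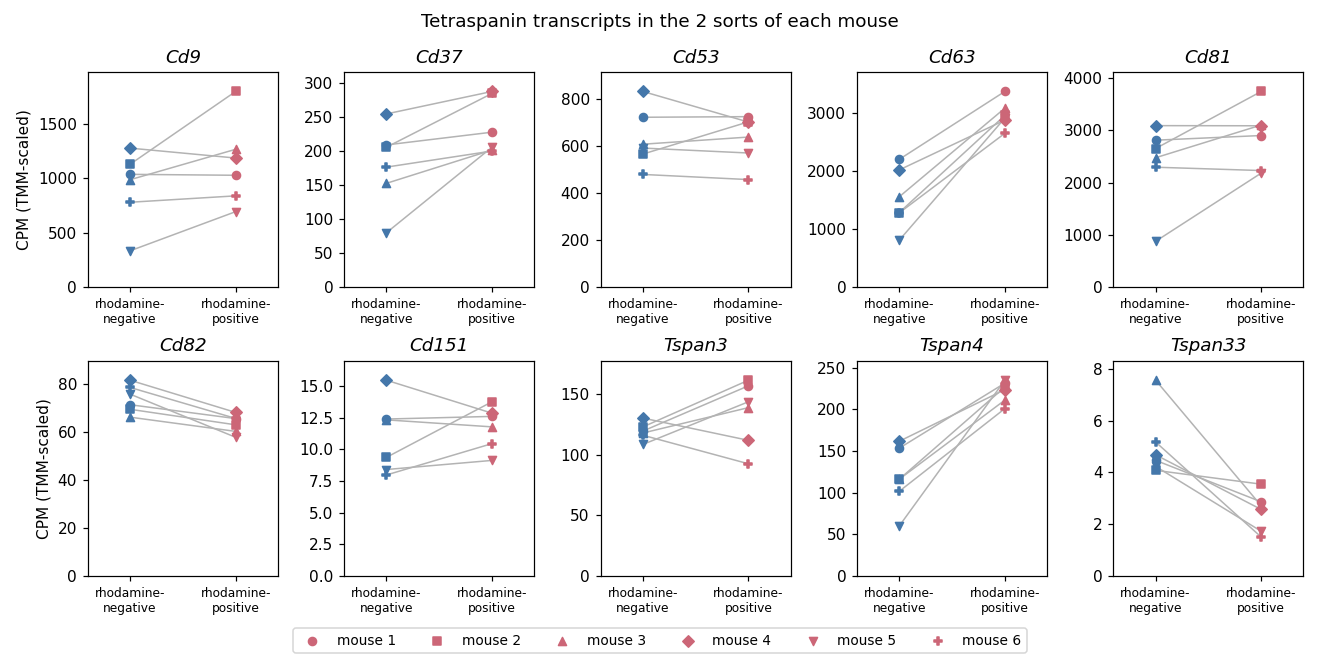
CPM of each tetraspanin (vertical axes, linear from 0) in the rhodamine-negative (blue) and rhodamine-positive (red) library of each mouse, with a grey line joining the 2 sorts of a mouse and a symbol for each mouse. Cd63 and Tspan4 rise along all 6 lines and Tspan33 falls along all 6, while the lines of Cd53 and Cd151 cross.

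Cd63 was the most raised of the set. It ranged from 810 to 2202 CPM in the negative sort, with a median of 1422 CPM, and from 2651 to 3372 CPM in the positive sort, with a median of 2937 CPM. Every rhodamine-positive library lay above every rhodamine-negative one, and the rhodamine-positive values lay closer together (mean 2976 ± 240 against 1526 ± 517 CPM, SD, n = 6 each). The fitted log2 fold change was 1.03 ± 0.15 (SE), or 2.05-fold (adjusted p = 0.000597, edgeR quasi-likelihood test with the mouse as a block). This placed Cd63 at rank 89 of 15014 genes by size of increase. Without mouse 5 the value was 0.88 ± 0.10. Cd63 lies at chromosome 10, positions 128900989 to 128912822 of mm10.

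Reads of Cd63 are shared with a processed copy, Cd63-ps, which was listed with 1182 to 5209 counts. Between 8.69% and 9.7% of the sum of both rows was assigned to the copy, and its log2 fold change was 1.09 ± 0.15. With both rows summed, the log2 fold change was 1.04.

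Tspan4 moved in parallel. Its level was 60.0 to 162 CPM in the negative sort, with a median of 116 CPM, and 201 to 235 CPM in the positive sort, with a median of 225 CPM. The groups were fully apart, and the rhodamine-positive libraries again differed little among themselves (221.5 ± 13 against 118 ± 36.9 CPM, SD, n = 6 each). The log2 fold change was 0.97 ± 0.16 (SE), or 1.95-fold (adjusted p = 0.00128), and 0.78 ± 0.10 without mouse 5. Tspan4 lies at chromosome 7, positions 141475240 to 141493427. Its exons share 292 bases with those of Chid1 on the other strand, which rose by 0.63 ± 0.12, and since the strand setting of the counting is not given in the sources used here, reads of that stretch cannot be told apart.

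Cd63 and Tspan4 kept a similar ratio, which was higher in the positive sort in 1 of 6 mice. Tspan4 had 0.0697 to 0.0903 counts for each Cd63 count in the negative sort and 0.0685 to 0.0807 in the positive sort. Their log2 CPM correlated with r = 0.985 over the 12 libraries, which share sort and mouse, and with r = 0.954 after the mean of each sort was taken out. Without mouse 5, r was 0.980 over 10 libraries. Among genes whose log2 CPM averaged 3 or more, the 4 whose pattern over the libraries was most like Cd63 were Cd63-ps, Tspan4, Hacd4 and Gstm5, with r of 0.982 to 0.999. The closest to Tspan4 were Camk1, Cd63-ps, Chid1 and Cd63 itself, with r of 0.985 to 0.986.

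**Figure D2:**
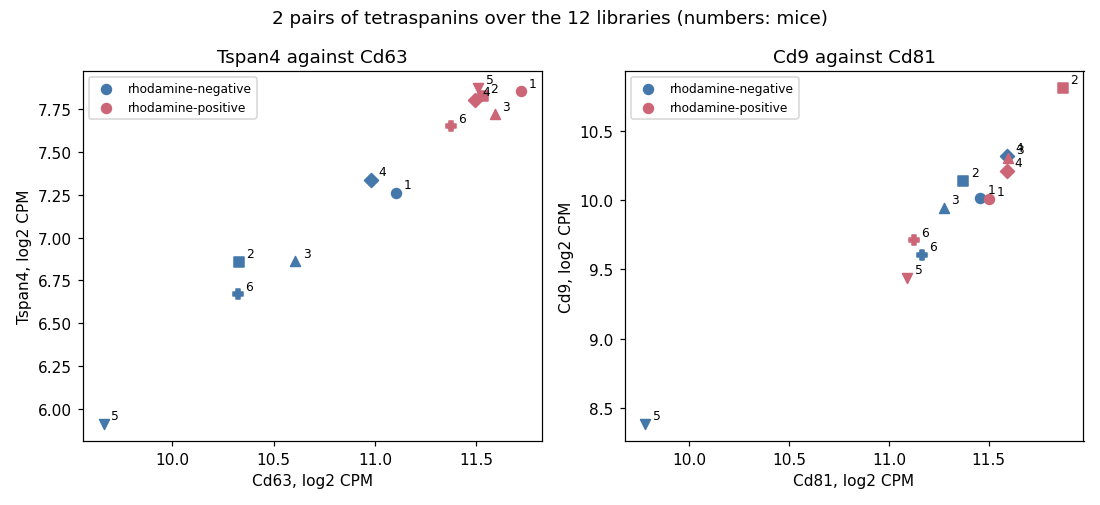
Left, Tspan4 against Cd63, and right, Cd9 against Cd81, in log2 CPM, with 1 point for each of the 12 libraries, coloured by sort and numbered by mouse. The sorts separate along Cd63 and Tspan4 and intermingle along Cd81 and Cd9, and the rhodamine-negative library of mouse 5 is lowest on all 4 axes.

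Because Cd63 and Tspan4 moved together while Tspan33 went the other way, the start regions of these 3 genes are shown. Each is a 300-base RefSeq window of build GRCm38.p6, the same assembly as mm10, from 250 bases before to 50 bases after an annotated transcript start, in the direction of the gene. RefSeq held 15 such windows for the 10 genes. Capitals mark matches, on either strand, to any of 8 motifs. The E-box that forms the core of the CLEAR element of lysosomal genes was searched as CACGTG. The binding core of the myeloid factor PU.1 was searched as GAGGAA. The letters for the GC box of the factor SP1 were GGGCGG. The TATA box was written as TATAAA. The dimer AP-1 was given the letters TGANTCA. The cAMP response element was represented by TGACGTCA. The core of the antioxidant response element was taken to be TGACNNNGC. The core shared by other ETS factors was searched as CCGGAAG, and it shares some of its letters with the PU.1 motif.
Cd63, plus strand of chr10:128909095-128909394: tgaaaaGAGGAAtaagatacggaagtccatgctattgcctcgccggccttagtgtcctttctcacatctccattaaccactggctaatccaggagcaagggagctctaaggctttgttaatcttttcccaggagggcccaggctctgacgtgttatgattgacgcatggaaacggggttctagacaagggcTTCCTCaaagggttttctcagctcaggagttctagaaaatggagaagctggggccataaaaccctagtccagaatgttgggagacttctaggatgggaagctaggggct
Tspan4, first start, plus strand of chr7:141474986-141475285: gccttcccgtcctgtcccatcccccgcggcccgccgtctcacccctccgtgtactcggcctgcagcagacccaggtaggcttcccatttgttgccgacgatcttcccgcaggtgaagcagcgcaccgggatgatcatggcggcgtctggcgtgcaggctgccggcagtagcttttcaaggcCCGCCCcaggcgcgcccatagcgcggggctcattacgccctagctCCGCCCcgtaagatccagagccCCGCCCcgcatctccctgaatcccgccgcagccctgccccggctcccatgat
Tspan4, second start, plus strand of chr7:141476130-141476429: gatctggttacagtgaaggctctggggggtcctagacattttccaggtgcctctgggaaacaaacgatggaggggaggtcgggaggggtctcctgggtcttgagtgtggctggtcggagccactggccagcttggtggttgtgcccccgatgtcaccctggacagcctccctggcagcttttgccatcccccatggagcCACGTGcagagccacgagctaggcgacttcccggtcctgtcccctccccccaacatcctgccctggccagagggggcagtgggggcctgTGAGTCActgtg
Tspan33, plus strand of chr6:29693964-29694263: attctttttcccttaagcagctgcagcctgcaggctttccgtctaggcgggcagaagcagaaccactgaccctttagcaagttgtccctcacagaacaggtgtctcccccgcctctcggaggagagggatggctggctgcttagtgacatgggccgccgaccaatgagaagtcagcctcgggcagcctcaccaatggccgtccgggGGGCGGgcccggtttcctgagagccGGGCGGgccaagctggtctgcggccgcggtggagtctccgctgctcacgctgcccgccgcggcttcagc

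The Cd63 window held 2 matches to the PU.1 core, 1 on each strand, and none to the other 7 motifs. The first Tspan4 window held 3 SP1 matches, and the second held 1 CACGTG match, 51 bases before the start, and 1 AP-1 match. The Tspan33 window held 2 SP1 matches. In the windows shown, Cd63 and Tspan4 shared no match among these motifs. The Cd63 window surrounds a start that lies inside the gene span given above, and the other starts that GENCODE lists for Cd63, the outermost one included, were not searched. CACGTG was present in 7.15% of the 32851 windows of all genes, GAGGAA in 28.3%, GGGCGG in 35.7% and TGANTCA in 7.81%. Among the 10 genes, CACGTG was found for Cd37 and Tspan4, and GAGGAA for Cd37, Cd53, Cd63 and Cd82. The Cd63 window was 49.3% G and C with 6 CG pairs, the 2 Tspan4 windows were 68.7% and 63.7% with 29 and 8, and the median of all windows was 52.7% with 7. A match in these letters is a description of the sequence and not a binding site.

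Cd37, the leukocyte tetraspanin that binds the fungal receptor Dectin-1, rose less. Its level was 80.3 to 255 CPM in the negative sort, with a median of 191 CPM, and 200.5 to 288 CPM in the positive sort, with a median of 217 CPM. The ranges overlapped, but the rhodamine-positive library was the higher in all 6 mice, by between 1.09-fold in mouse 1 and 2.57-fold in mouse 5. The log2 fold change was 0.45 ± 0.14 (adjusted p = 0.0388), or 0.28 ± 0.08 without mouse 5 (adjusted p = 0.0339). The call was lost without mouse 2, 3 or 6 (adjusted p = 0.0814, 0.0868 and 0.0546), with unpaired sorts, that is, no block for the mouse (adjusted p = 0.224), with upper quartile scaling (adjusted p = 0.0509), with library size alone (adjusted p = 0.133) and in male mice alone (adjusted p = 0.0779). Its exons share 13 bases with the neighbouring Tead2. The genes most like Cd37 over the 12 libraries were Slc46a1, Ldhb, Olfml3 and Tmem119, with r of 0.969 to 0.982, and r of 0.896 to 0.946 without mouse 5. Olfml3 and Tmem119 are markers of the microglia list, and neither passed the test between sorts.

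Cd53, the other leukocyte tetraspanin, was level between the sorts in its fitted value. It had 479 to 831 CPM in the negative sort (median 599) and 457 to 724 CPM in the positive sort (median 669), so the ranges lay almost on top of each other. The log2 fold change was 0.00 ± 0.09 (SE) and its sign changed between settings. B cells also carry Cd37 and Cd53. Of the 10 B cell markers, Ms4a1 had 0 to 27 counts and Pax5 0 to 6, and the list sum of 57.7 to 99.3 CPM in the negative sort and 129 to 148 CPM in the positive sort was mostly Cd22 and Cd79b. Cd22 alone passed, by 0.95.

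The paired surface tetraspanins Cd81 and Cd9 did not pass. Cd81 had 879 to 3089 CPM in the negative sort (median 2564) and 2183 to 3743 CPM in the positive sort (median 2994). Its rhodamine-negative libraries other than mouse 5 had at least 2295 CPM and lay within the range of the rhodamine-positive ones. The log2 fold change was 0.35 ± 0.16 (adjusted p = 0.123), and 0.17 ± 0.09 without mouse 5. Cd81 was 2.48-fold higher in the rhodamine-positive library of mouse 5 and 0.972-fold in that of mouse 6, the lowest of the 6 mice. Its exons share 104 bases with the antisense transcript R74862. Exons of Cd9 share 218 bases with Gm26728, and those of Cd151 share 193 bases with Gm10575, each on the other strand.

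Cd9 followed Cd81 across libraries. It had 334 to 1276 CPM in the negative sort (median 1011) and 693 to 1795 CPM in the positive sort (median 1106), with a log2 fold change of 0.34 ± 0.14 (adjusted p = 0.0943) that was 0.21 ± 0.11 without mouse 5. It passed when mouse 4 was left out (adjusted p = 0.0494), with DESeq2 (0.0387) and with no low count filter (0.00583), and Cd81 passed in the last of these (0.00332). Cd9 and Cd81 correlated with r = 0.970 over the 12 libraries and r = 0.949 without mouse 5. The count ratio of Cd9 to Cd81 was 0.387 ± 0.0313 in the negative sort and 0.386 ± 0.0549 in the positive sort (SD, n = 6 each). By contrast, the count ratio of Cd63 to Cd81, which library scaling cannot move, was 0.485 to 0.922 (median 0.642) in the negative sort and 0.791 to 1.33 (median 1.08) in the positive sort and was higher in all 6 mice. These ratios were chosen after the values were seen and have no test. Platelets are rich in CD9, and of the 8 platelet markers Ppbp had 0 to 6 counts, Gp1bb none, Gp6 0 to 3 and Gp9 15 to 119, while Itga2b passed as lower at -2.95. The sort was gated on CD45+ CD11b+ cells, and the part of platelet RNA in the Cd9 values was not tested. The platelet list sum was 7.45 to 36.4 CPM in the negative sort and 3.48 to 6.02 CPM in the positive sort.

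Tspan33 was the 1 member that fell. It was the scarcest, with 19 to 108 counts a library. Its level was 4.08 to 7.56 CPM in the negative sort, with a median of 4.57 CPM, and 1.5 to 3.55 CPM in the positive sort, with a median of 2.64 CPM, and the groups did not overlap. The log2 fold change was -1.03 ± 0.25 (SE), a level 2.04-fold lower (adjusted p = 0.0122), with a difference of -0.20 in mouse 2 and -1.70 in mouse 6. The call was lost by a narrow margin without mouse 3 (-0.93, adjusted p = 0.0501), whose rhodamine-negative library was the highest at 7.56 CPM, and in male mice alone (-0.80, adjusted p = 0.107). The genes most like it were Irf2bp2, Ankrd11, Csk and Ptpn12, with r of 0.891 to 0.915, which passed as lower with log2 fold changes of -0.34 for Csk to -1.0 for Ptpn12. After the mean of each sort was taken out, r was 0.678 to 0.810.

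Cd82, a partner of integrins known as a suppressor of tumour spread, was slightly lower in every mouse. It ranged from 66.2 to 81.6 CPM in the negative sort (median 73.6) and from 57.8 to 68.1 CPM in the positive sort (median 64.3), which overlapped at their edges. The log2 fold change of -0.22 ± 0.08 did not pass (adjusted p = 0.0662). It passed in 4 of 18 other settings, among them library size alone (-0.38, adjusted p = 0.00636), a scaling that moved the median of all genes to -0.18. The others were limma on the deposited log2 table (-0.25, adjusted p = 0.0271), the length offset (-0.23, 0.0487) and the GC content and length offset (-0.25, 0.0384). In these, the median of all genes was -0.0041, -0.0054 and -0.0091. Cd151, which binds laminin-binding integrins, had 7.97 to 15.5 CPM in the negative sort and 9.12 to 13.8 CPM in the positive sort, with a log2 fold change of 0.12 ± 0.15. Tspan3 had 108 to 130.0 CPM in the negative sort and 92.4 to 161 CPM in the positive sort, with a log2 fold change of 0.15 ± 0.11. The rhodamine-positive libraries of Tspan3 were the more spread, with an SD of 26.8 against 7.23 CPM. Neither passed (adjusted p = 0.567 and 0.365), and both values turned to -0.03 and -0.01 with library size alone.

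**Figure D3:**
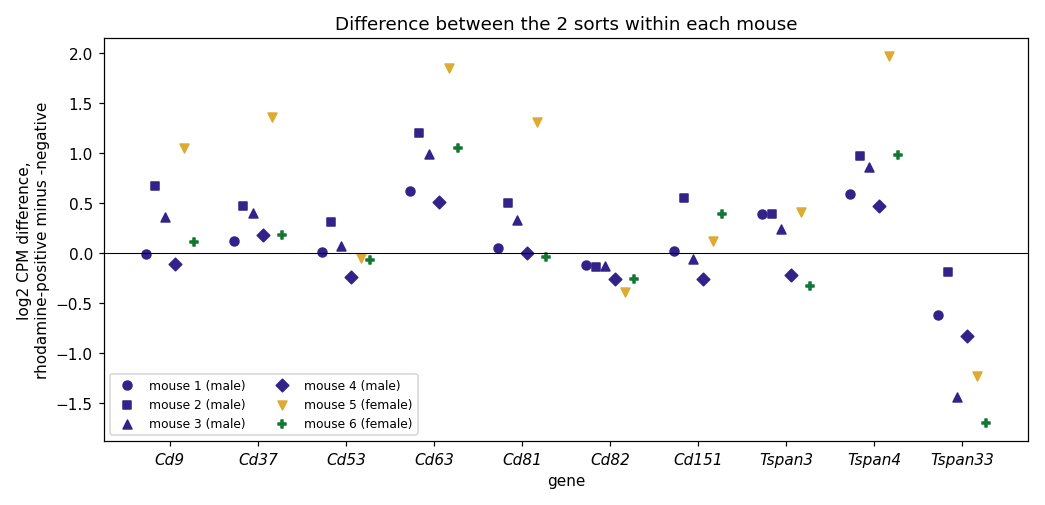
Difference in log2 CPM between the rhodamine-positive and rhodamine-negative library of each mouse (vertical axis) for the 10 tetraspanins, with a symbol for each mouse and a colour each for the males, mouse 5 and mouse 6. Mouse 5 gives the highest value for Cd9, Cd37, Cd63, Cd81, Tspan3 and Tspan4 and the lowest for Cd82. All 6 mice lie below 0 for Cd82 and Tspan33.

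The mice differed in how many of the 10 genes were higher in the rhodamine-positive library, from 3 in mouse 4 to 8 in mouse 2. The median difference over the 10 genes was -0.16 in mouse 4 and 0.73 in mouse 5, while that over all genes tested was between -0.02 and 0.04 in every mouse. Cd63 and Tspan4 were higher in all 6 mice, with the smallest differences in mouse 4, at 0.51 and 0.47. The mean difference of Cd63 was 0.83 in the 4 males and 1.45 in the 2 females, and that of Tspan4 was 0.72 and 1.47. In the sort by sex interaction of edgeR, none of the 10 genes and 0 of 15014 genes tested passed, a share called of 0%. Before adjustment, edgeR put 7.73% of all genes (1160) under 0.05, among them 2 of the 10: Cd63 (adjusted p = 0.634) and Tspan4 (adjusted p = 0.589). limma-voom also gave 0 genes after adjustment, and 1253 before it. The other female, mouse 6, had 1.05 for Cd63, inside the male range of 0.51 to 1.20, and 0.98 for Tspan4, just above the male range of 0.47 to 0.97.

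Set per length, the 10 genes differed widely. In CPM per kilobase of merged exon (a level), rhodamine-negative libraries had Cd81 at 822 ± 271, Cd9 at 452 ± 162, Cd63 at 414 ± 140 and Cd53 at 363 ± 71.6, followed by Tspan4 at 54.3 ± 16.9, Cd37 at 51.2 ± 17.0, Tspan3 at 27.8 ± 1.69, Cd82 at 24.6 ± 1.94, Cd151 at 4.01 ± 1.06 and Tspan33 at 0.969 ± 0.250 (SD, n = 6). The steps from Cd9 to Cd63, from Cd63 to Cd53 and from Tspan4 to Cd37 lay within the SD, and the other steps in that order did not. In rhodamine-positive libraries Cd63 stood second at 808 ± 65.1, within the SD of Cd81 at 998 ± 205, ahead of Cd9 at 555 ± 190 (SD, n = 6). With the median length of protein-coding transcripts, chosen after the data were seen, Cd63 also stood second in the negative sort, at 1449 against 752 CPM per kilobase for Cd9. The 10 genes together took 0.337% to 0.814% of all counts in the negative sort and 0.652% to 0.920% in the positive sort.

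**Figure D4:**
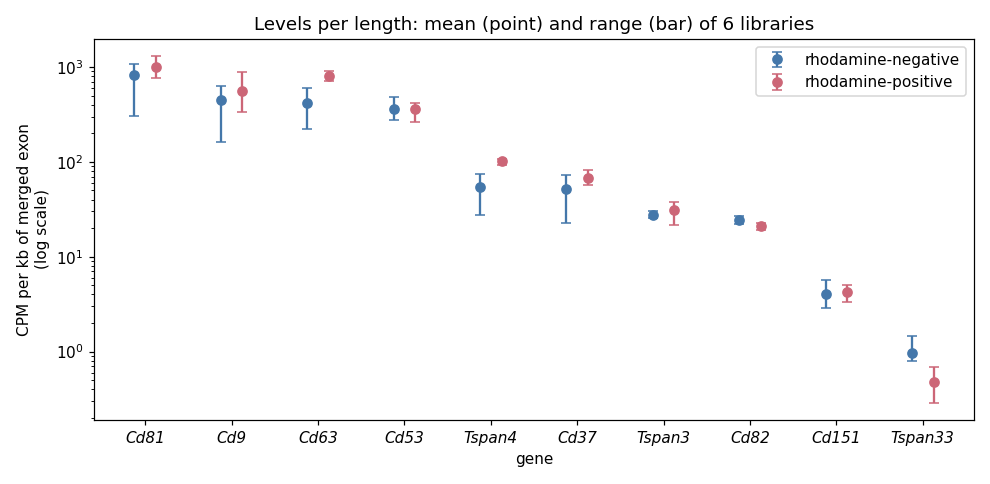
Mean level of each tetraspanin in CPM per kilobase of merged exon (log axis), with bars from the lowest to the highest of 6 libraries, for rhodamine-negative (blue) and rhodamine-positive (red) libraries. Cd81, Cd9, Cd63 and Cd53 form the upper 4 in both sorts, and Tspan33 is lowest.

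The rest of the tetraspanin family was examined beside these genes. Of 21 other tetraspanin genes, 14 could be tested, and 4 were higher and 3 lower. That was a share of 50%, against 26.2% of all genes tested, and the median log2 fold change of the 14 was 0.04. The 7 that could not be tested had at most 20 counts in any library. Tspan7 rose most, from 71.7 ± 25.9 to 134 ± 29.5 CPM (SD, n = 6), a log2 fold change of 0.94 ± 0.14 (adjusted p = 0.000578). Tspan9 rose by 0.46 ± 0.13, Tspan14 by 0.34 ± 0.10 and Tspan31 by 0.27 ± 0.09, and none of these 3 calls held with library size alone (adjusted p = 0.103, 0.163 and 0.332) or with unpaired sorts (0.0714, 0.140 and 0.0624). Tspan31 lost its call also without mouse 2, 3, 4, 5 or 6 (adjusted p of 0.0591 to 0.0965), Tspan9 without mouse 2, 5 or 6 (0.0504 to 0.0621) and Tspan14 without mouse 1 or 3 (0.0563 and 0.0867).

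Tspan13 fell from 151 ± 25.3 to 85.4 ± 23.1 CPM (SD, n = 6), a log2 fold change of -0.85 ± 0.14, and its groups did not overlap. Tspan2, a tetraspanin of oligodendrocytes, had 4.02 ± 2.86 CPM in the negative sort against 0.733 ± 0.677 CPM (SD, n = 6), a log2 fold change of -2.59 ± 0.51, and the urothelial Upk1b passed as lower at -0.83 ± 0.23. That last call was lost when mouse 1, 3, 4 or 6 was left out (adjusted p of 0.0522 to 0.0610). Of 12 oligodendrocyte lineage or glioma markers, 5 were lower, and their sum was 250.4 to 309 CPM in the negative sort and 228 to 296 CPM in the positive sort. Tspan17, Tspan32, Tspan18, Tspan5, Rom1, Tspan6 and Tspan15 did not pass, with log2 fold changes of 0.45, 0.35, 0.04, 0.03, -0.37, -0.85 and -1.68. Tspan15, with 0 to 35 counts, passed with DESeq2 (-4.57, adjusted p = 0.0257) and with no low count filter (-2.09, 0.0426). Tspan32 passed with no low count filter (adjusted p = 0.0292) and without mouse 4 (0.0321), and Tspan17 without mouse 2 (0.0371).

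**Figure D5:**
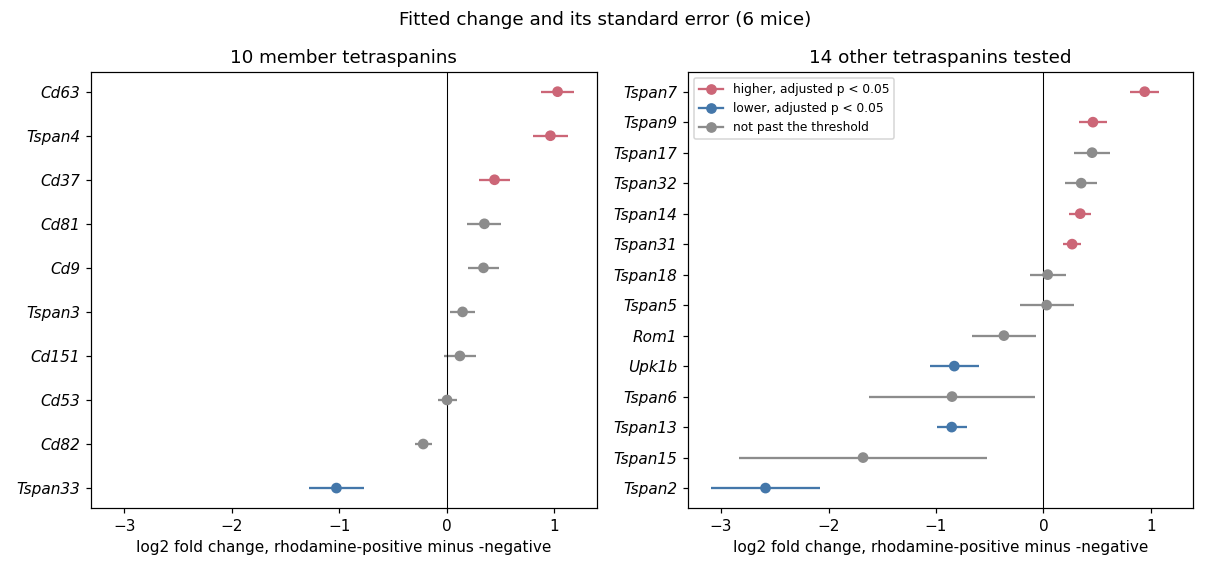
Log2 fold change, rhodamine-positive minus rhodamine-negative, with its SE as a bar, for the 10 tetraspanins (left) and the 14 other family members that were tested (right), coloured by whether they passed the test as higher (red) or lower (blue) or did not pass (grey). Cd63, Tspan4 and Tspan7 are the highest, at 1.03, 0.97 and 0.94, and Tspan2 is the lowest at -2.59.

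Among the tested tetraspanins that carry ADAM10, Tspan33 fell and Tspan14 rose, while Tspan5, Tspan15 and Tspan17 did not pass. At 227 ± 21.0 CPM in the positive sort, Tspan14 had by far the most counts of the 5. Of 17 tested genes of ADAM10 and its shed substrates, 4 were higher and 6 lower. That was a share of 58.8%, against 26.2% of all genes tested, with a median of -0.22. The protease genes Adam10 and Adam17 rose by 0.32 ± 0.09 and 0.27 ± 0.08. These calls did not hold with library size alone (adjusted p = 0.162 and 0.280) or with unpaired sorts (0.0700 and 0.0925). The Adam10 call was also lost when mouse 2 or 3 was left out (adjusted p = 0.0587 and 0.0547), and the Adam17 call when mouse 1 or 3 was (0.0584 and 0.0830). The lipoprotein receptor gene Lrp1 rose by 0.57 and the phagocyte receptor gene Trem2 by 0.63, the latter not with unpaired sorts (adjusted p = 0.0814). Those that fell included Cdh1, which encodes E-cadherin, at -2.84, the costimulatory ligand gene Icosl at -0.86 and Nectin1 at -2.35.

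Surface partners of tetraspanins were mostly lower where they passed. Of 22 tested, 2 were higher and 6 lower, a share of 36.4%, against 26.2% of all genes tested, with a median of -0.16. The integrin gene Itga4 fell from 61.9 ± 27.2 to 24.2 ± 2.45 CPM (SD, n = 6), a change of -1.27 ± 0.18, while Itga6, whose protein pairs with CD151, rose by 0.34 ± 0.10. The growth factor gene Tgfa rose by 0.49. Epcam, Kit and the chemokine receptor gene Cxcr4 changed by -2.88, -2.37 and -1.05. Kit is also a mast cell marker, and the basophil or mast cell list fell from 26.0 to 609 CPM to 5.60 to 37.1 CPM. The Itga6 call did not hold with unpaired sorts (adjusted p = 0.318), with library size alone (0.168) or in male mice alone (0.137). It was also lost without mouse 1, 2 or 6 (adjusted p of 0.0545 to 0.0668).

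Of 22 tested genes of extracellular vesicles and multivesicular bodies, the compartment CD63 is used to mark, 5 were higher and 1 lower. This share of 27.3% was close to the 26.2% of all genes tested, and the median was 0.15. Sdcbp, which encodes the CD63-binding adaptor syntenin, rose from 1219 ± 156 to 1735 ± 248 CPM (SD, n = 6), by 0.51 ± 0.08. The small GTPase genes Rab31 and Rab7 rose by 0.65 and 0.43, and the flotillin gene Flot2 by 0.35. Arf6, another small GTPase gene, fell by 0.58. The Flot2 call did not hold with unpaired sorts (adjusted p = 0.135) or with library size alone (0.198). It was also lost without mouse 1, 3, 4 or 6 (adjusted p of 0.0512 to 0.0728).

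Of the 12 fusion and giant cell genes, the process that CD9 and CD81 restrain, 4 were higher and 4 lower. That was a share of 66.7%, against 26.2% of all genes tested, with a median of -0.02. Dcstamp and Ocstamp, which encode fusion proteins of osteoclasts and dendritic cells, passed as lower with log2 fold changes of -3.46 and -2.57, beside the lower dendritic cell list, whose part in these values was not tested. Cd47 fell by 0.58, and the gelatinase gene Mmp9, with 0 to 85 counts, had a log2 fold change of -3.95. The metalloproteinase genes Adam9 and Adam8 rose by 0.66 and 0.58, the latter not with unpaired sorts (adjusted p = 0.261). Sirpa, the receptor of CD47, rose by 0.28, and the proton pump gene Atp6v0d2 had a log2 fold change of 1.33. Atp6v0d2 was higher in 4 mice and lower in 2, at 0.713 to 36.2 CPM in the positive sort. Neither call held without mouse 1 or 3 (adjusted p of 0.0992 to 0.163). Both were also lost with unpaired sorts (0.190 and 0.131), library size alone (0.289 and 0.0547) and limma on the deposited log2 table (0.0511 and 0.0985). Sirpa also failed without mouse 2 (0.0523), with upper quartile scaling (0.0538) and in male mice alone (0.0714), and Atp6v0d2 without mouse 5 (0.0751). The Mmp9 call was lost when mouse 3 or 6 was left out (0.0548 and 0.0538).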

How the data were processed

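RNA of paired sorts from 6 mice was sequenced on an Illumina HiSeq instrument. The submitters' processing notes name HISAT2 2.1.0 and featureCounts 1.4.4, besides bcl2fastq 2.17, cutadapt, limma and edgeR, with build mm10. The role and settings of each tool and the strand setting are not given in the sources used here. The authors deposited raw read counts per gene, as 1 table and 12 files that held the same values, and log2 normalized values of 10605 genes.

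The deposited counts went into edgeR 4.0.16 (R 4.3.3) and its quasi-likelihood test. Genes were kept by filterByExpr (count 10, total 15), scaling was by trimmed mean of M values, and the mouse entered as a block. Benjamini-Hochberg adjustment covered 15014 genes, with a threshold of 0.05. The SE was taken as the size of the log2 fold change over the root of its F value. Log2 CPM used a prior count of 2. The same fit was run on simulated counts with known changes, and no result given here rests on that run. Per the series text, the sorts are paired by animal. Deviations from the group means correlated with r of 0.0775 to 0.450 within a mouse, lowest in mouse 4. For mouse 4 the highest r with a sort of another mouse was larger, at 0.187. For the other mice the r within the mouse was the larger. Coordinates, lengths and overlaps came from GENCODE vM21, and start regions from RefSeq GRCm38.p6.

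All 10 tetraspanins and all tested family members are named, with up to 4 genes per direction and list by smallest p, except items that are not reported here. The members, lists and tests were chosen with earlier results of these data known. Other settings were unpaired sorts, limma 3.58.1 (voom, and on the log2 table), DESeq2 1.42.0, other scalings, filters and thresholds, offsets for gene length and GC content, leaving out each mouse, and males only. In the paired fits, SEs and p-values measure how the difference between sorts varied over these 6 mice, counting error included.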

Additional observations from a re-analysis of the deposited data

Results flagged for a closer look

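In groups of 6 values, a lowest or highest value was singled out when its gap to the next, as a share of the whole range, exceeded Dixon's critical value. Of 36 groups examined, 6 values met this, and chance alone singles out about 1 in 20 groups. The rhodamine-negative library of mouse 5 gave 3 of them: Cd81 at 879 CPM (next lowest 2295), summed macrophage markers at 11192 CPM (next lowest 21824) and the first principal component at -75.7 (next lowest -37.3). The same mouse had the largest log2 differences between sorts for Cd37, at 1.36 (next 0.47), and Tspan4, at 1.97 (next 0.98). Tspan33 was high in the rhodamine-negative library of mouse 3, at 7.56 CPM (next highest 5.18).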

How the results depend on the processing

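Cd63 and Tspan4 passed as higher in every setting run, with log2 fold changes of 0.82 to 1.14 and 0.71 to 1.07. Over the 10 tetraspanins and all settings other than the stricter p threshold, 151 of 181 other values kept their direction and side of the threshold, 9 lost the call, 8 gained one and 13 changed sign. Without the mouse as a block, 2668 genes and 3 of the 10 tetraspanins passed, and Cd37 was the tetraspanin lost. Genes passing numbered 3941 in the main fit, 2227 in male mice alone, 1941 at an adjusted p threshold of 0.01 and 2678 to 3600 with 1 mouse left out. Tetraspanins passing numbered 4, 2, 2 and 2 to 5 in the same settings (Cd37 and Tspan33 were lost at the stricter threshold), with 2 when mouse 3 was left out and 5 when mouse 4 was. With no low count filter, 6 passed. With library size alone, 856 genes were higher and 3127 lower, against 1955 and 1986, and the median of all genes was -0.18, and without a filter it was -0.32. Signs changed for uncalled genes. For Cd53 the values were -0.0010 without the block, -0.0055 with DESeq2 and with its size factors in edgeR, -0.028 on the deposited log2 table, -0.15 with library size alone, -0.0092 with upper quartile scaling, -0.0053 with the CPM filter, -0.043 with the length offset, -0.0029 with the GC content and length offset, and -0.059 to 0.054 with 1 mouse left out. With library size alone Cd151 was -0.034, Tspan3 -0.0099, Tspan5 -0.13 and Tspan18 -0.12. With 1 mouse left out, Tspan5 was -0.19 to 0.21, lowest without mouse 1, and Tspan18 -0.093 to 0.19, lowest without mouse 5. Tspan6 was 0.11 without the block. The cause of these changes was not tested. In the order of levels per length, 8 of 9 neighbours in the negative sort kept their order with the median coding transcript length, chosen after the data were seen, and 9 of 9 with the longest transcript. Of 14 list genes with the smallest p that were higher, 8 lost the call without the block and 6 with library size alone, and of 13 that were lower, 1 lost it in any setting. Tspan33 had 19 to 108 counts a library, and counting error and the spread between mice were not separated for it.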
